A study of Mus musculus with 6 samples.

Results

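The facilitative glucose transporters are membrane proteins of the SLC2A family, and 10 of their genes were described here among the 24010 named genes measured in cultured mouse pancreatic buds. The members were Slc2a1, Slc2a2, Slc2a3, Slc2a4, Slc2a5, Slc2a6, Slc2a8, Slc2a9, Slc2a10 and Slc2a12. They were taken by gene symbol as a family around Slc2a2. The family was chosen by the measured signal of Slc2a2, which was strongly lower under both inhibitors. The contrasts of each inhibitor with control thus picked out the group, and the members' values in them are given as a description. Where a limma interval or call is printed for a member in these contrasts, it describes these arrays and is no independent test.

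These proteins let hexoses cross membranes down their gradient, without coupling to ions or to ATP. The family has several sequence classes: the classical glucose carriers (Slc2a1 to Slc2a4 here), the class around the fructose carrier Slc2a5, which includes the urate carrier Slc2a9, and the class of Slc2a6, Slc2a8, Slc2a10 and Slc2a12, several of which sit on membranes inside the cell. Slc2a2 encodes GLUT2, a carrier with a low affinity for glucose that also takes fructose, known for hepatocytes, beta cells, the absorbing cells of gut and kidney, and the early pancreatic epithelium. Sugar that has entered is trapped by hexokinases.

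Dorsal pancreatic buds were dissected from mouse embryos at E11.5 and cultured for 24 h, and RNA from pools of 10 buds was hybridised to Affymetrix whole-transcript arrays. Treatments had 2 arrays each: 0.1% DMSO (CTRL), 500 nM I-BET151 and 100 nM JQ1. I-BET151 and JQ1 both occupy the bromodomains of the BET proteins, which read acetylated histones and help to recruit the elongation machinery. The labels name DMSO for the control only and do not give the mouse strain. They do not say if the pools of each treatment were independent litters, and p-values here reflect only pool-to-pool spread, some of which may be technical. A bud at this stage holds epithelium, mesenchyme, vessels and nerve precursors, and in such a mixed sample fewer cells of a type and less RNA per cell cannot be told apart.

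Values are intensities on a linear scale as the authors normalized them. The array medians lay between 54 and 57, and 6 of the 10 members lay above the median gene in mean log2 intensity over the arrays. Slc2a6, Slc2a9 and Slc2a10 lay below it, and Slc2a12 lay in the lowest 25% of genes. All 13 listed markers of pancreatic epithelium were measured above 20 on at least 1 array, and their summed intensity was 9191 and 9497 on the control arrays. Levels are compared between conditions for the same gene, never between genes, because each gene has its own probes.

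The promoter of Slc2a2 is shown because its gene carried the largest difference of the family, beside that of Slc2a1, whose signal was among the steadiest. Each line is the 250 bases before the annotated start, 5′ to 3′ in the direction of the gene, from RefSeq on GRCm38.p6 (Slc2a2 at chr3:28697653-28697902 and Slc2a1 at chr4:119108495-119108744, both on the plus strand). Capitals mark CG pairs and, in Slc2a2, a run of TTATC.
Slc2a2: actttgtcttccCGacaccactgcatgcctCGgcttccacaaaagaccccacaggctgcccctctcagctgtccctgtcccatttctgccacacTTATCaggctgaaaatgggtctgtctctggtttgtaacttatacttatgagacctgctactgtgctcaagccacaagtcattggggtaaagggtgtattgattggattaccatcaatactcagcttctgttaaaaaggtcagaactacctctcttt
Slc2a1: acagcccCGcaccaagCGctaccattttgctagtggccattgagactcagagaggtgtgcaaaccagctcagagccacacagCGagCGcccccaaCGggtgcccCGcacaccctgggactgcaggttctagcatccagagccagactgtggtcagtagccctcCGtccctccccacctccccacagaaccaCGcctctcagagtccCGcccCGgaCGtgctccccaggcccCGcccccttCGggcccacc
The run TTATC, at 156 to 152 bases before the Slc2a2 start, is the reverse complement of GATAA, the letters searched for GATA factors. It was the only exact match among 7 motifs searched on both strands in the 8 members with a promoter entry. Other forms of a GATA site were not searched. GATAA or its reverse complement was present in 22.6% of all 32851 promoter windows of the same length. The other 6 motifs were TGTTTAC (forkhead, 3.17% of all windows), TGTTTGC (a forkhead variant, 4.3%), CAAAGTC (HNF4, 3.84%), TAATTA (homeodomain, 4.84%), CACGTG (E-box, 6.02%) and TATAAA (the core promoter box, 12.4%), and no member window held them. Some of the motifs share letters: the forkhead pair shares its first bases, and GATAA and TATAAA share ATAA. CG pairs were few in the Slc2a2 window, with 2, and numbered 13 in that of Slc2a1. The median over all windows was 6, and 29% of windows held 2 or fewer. Among the other members whose inhibitor arrays were all under the controls, Slc2a5 had 15 CG pairs, Slc2a10 had 8 and Slc2a3 had no window. A link between CG pairs and the values was not tested.

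Slc2a2 had the largest difference from control of the family under each inhibitor. Its intensity was 544 and 655 on the control arrays, 99 and 125 on the I-BET151 arrays and 76 on both JQ1 arrays. All 4 inhibitor arrays lay far under both controls, and the JQ1 arrays lay under both I-BET151 arrays. The mean of 599.5 ± 78.5 (SD, n = 2) in controls stood against 112 ± 18.4 (SD, n = 2) under I-BET151 and 76 under JQ1. On the log2 scale the differences were -2.42 ± 0.15 (SE) for I-BET151 and -2.97 ± 0.15 (SE) for JQ1, or 5.37-fold and 7.85-fold lower. The signal that remained was 18.6% of control under I-BET151 and 12.7% under JQ1. In both contrasts it was the second most negative difference among the 24010 genes, after Cckar, the cholecystokinin A receptor gene, and this place is what the choice of the family rests on.

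**Figure D1:**
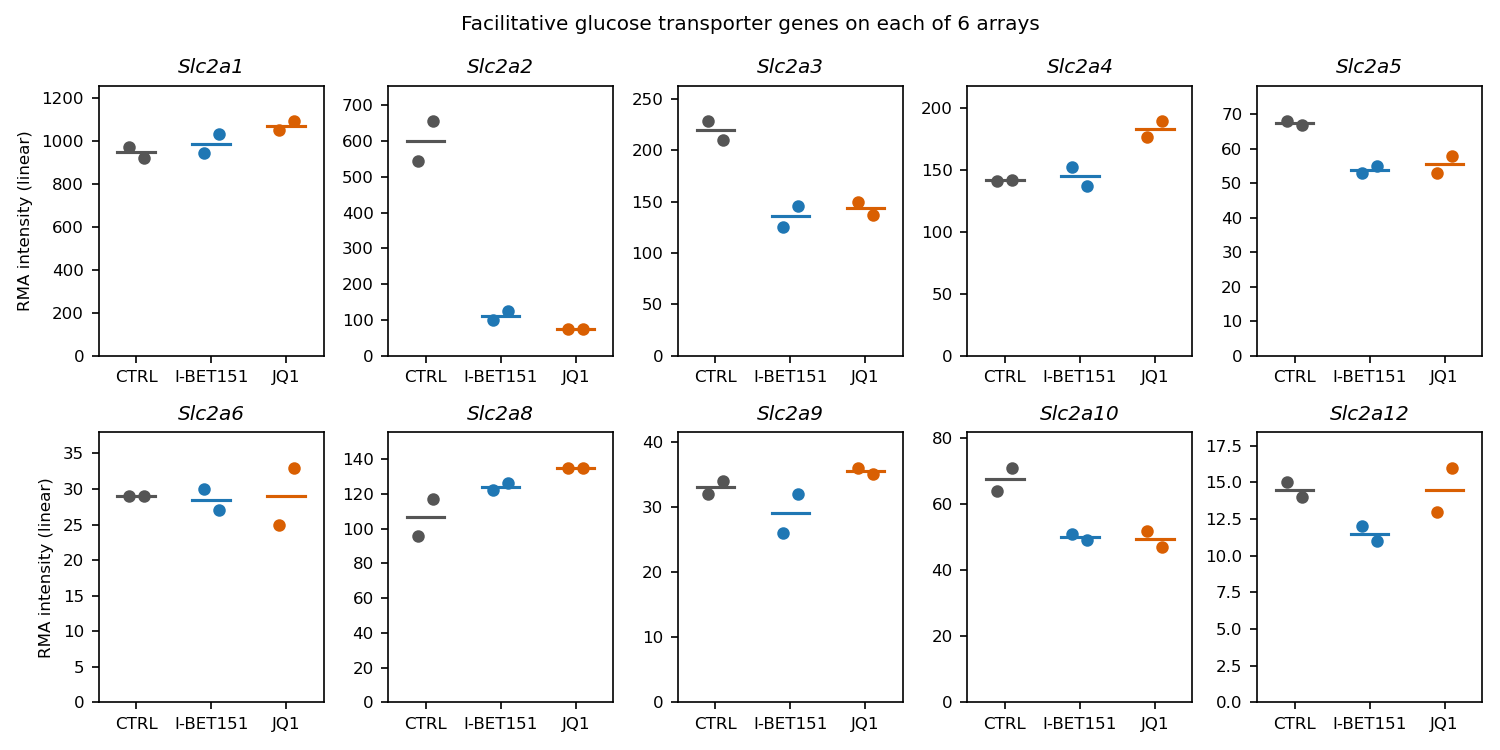
RMA intensity on a linear axis from 0 for each of the 10 transporter genes, with 1 point per array and a line at the mean of the 2 arrays of each group. Slc2a2 was at 544 and 655 in controls and at 76 on both JQ1 arrays, while Slc2a1 stayed between 923 and 1093 on all 6 arrays.

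The other classical glucose carriers differed far less from control. Slc2a1 encodes GLUT1, the carrier of basal glucose uptake in most embryonic cells, red cells and barrier vessels. It was at 975 and 923 in controls, 944 and 1033 with I-BET151 and 1050 and 1093 with JQ1. The I-BET151 arrays overlapped the controls, and both JQ1 arrays were the highest of the 6. Its log2 difference was 0.06 ± 0.07 (SE) under I-BET151, with a 95% interval from -0.14 to 0.25, and 0.18 ± 0.07 under JQ1, from -0.02 to 0.37.

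Slc2a3 encodes GLUT3, a carrier with a high affinity for glucose that is known for neurons and the placenta. Its intensity was 228 and 210 in controls, 125 and 146 with I-BET151 and 150 and 137 with JQ1. All 4 inhibitor arrays were under both controls, and the groups of the inhibitors overlapped each other. The differences were -0.70 ± 0.11 (SE) and -0.61 ± 0.11 on the log2 scale, 1.62-fold and 1.53-fold lower. Over 7 measured markers of neural crest and neurons (list of 10), the summed intensity was 2031 and 2127 in controls, 1047 to 1157 with I-BET151 and 987 to 1050 with JQ1. Single markers differed in size, with log2 differences from -1.72 to -0.10 under I-BET151 and from -2.27 to -0.03 under JQ1. Of the 7, 2 fell under I-BET151 and 3 under JQ1, where 0.870% and 2.67% of all genes were called as lower. None of these markers lay at 20 or under on every array, and their part in the Slc2a3 values was not tested.

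Slc2a4 encodes GLUT4, the insulin-responsive carrier of muscle and fat. It was at 141 and 142 in controls, 152 and 137 with I-BET151 and 176 and 189 with JQ1. The I-BET151 arrays lay on either side of the controls, and the JQ1 arrays were above all others. Its log2 difference from control was 0.03 ± 0.08 (SE) under I-BET151 and 0.37 ± 0.08 under JQ1, or 1.29-fold higher.

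Of the fructose and urate carriers, Slc2a5 was slightly lower and Slc2a9 had no shared direction. Slc2a5 encodes GLUT5, the fructose carrier of the gut. It was at 68 and 67 in controls, 53 and 55 with I-BET151 and 53 and 58 with JQ1, so that all inhibitor arrays were under the controls and the inhibitors overlapped. The log2 differences were -0.32 ± 0.07 (SE) and -0.28 ± 0.07. Slc2a9, whose product carries urate in kidney and liver, was at 32 and 34 in controls, 26 and 32 with I-BET151 and 36 and 35 with JQ1. Its differences were -0.19 ± 0.11 (SE) and 0.11 ± 0.11, and both 95% intervals included 0.

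The class of mostly intracellular carriers held the only member whose inhibitor arrays were all above the controls. Slc2a8, which encodes GLUT8, a carrier on inner membranes known from testis and brain, was at 96 and 117 in controls, 122 and 126 under I-BET151 and 135 on both JQ1 arrays. The control arrays differed from each other by more than the higher control differed from the nearest I-BET151 array. The log2 differences were 0.23 ± 0.11 (SE) and 0.35 ± 0.11. Slc2a10, whose loss causes arterial tortuosity, was at 64 and 71 in controls, 51 and 49 with I-BET151 and 52 and 47 with JQ1. All 4 inhibitor arrays were lower, by 1.35-fold and 1.36-fold in the mean, and the inhibitors overlapped. Marker sums of endothelium and mesenchyme were also lower: summed intensities over 12 endothelial markers were 6747 and 6928 in controls, 4958 to 5368 with I-BET151 and 4731 to 4800 with JQ1, and over 12 mesenchyme markers 15185 and 15723, 13026 to 13430 and 12691 to 12815. Single log2 differences ranged from -1.38 to -0.15 and from -1.53 to -0.07 for the endothelial markers. For the mesenchyme markers they ranged from -1.94 to 0.02 under I-BET151 and from -2.25 to 0.16 under JQ1. Of the 12 endothelial markers 2 fell under I-BET151 and 5 under JQ1, and of the 12 mesenchyme markers 2 and 4. Of all genes, 0.870% and 2.67% were called as lower. No marker of either list lay at 20 or under on every array, and the part of these cells in the Slc2a10 values was not tested.

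Slc2a6 and Slc2a12 were dim. Slc2a6, which encodes a lysosomal carrier of immune cells, was at 29 on both control arrays, 30 and 27 with I-BET151 and 25 and 33 with JQ1. Slc2a12, known from muscle and heart, was at 15 and 14 in controls, 12 and 11 with I-BET151 and 13 and 16 with JQ1. For both genes the JQ1 arrays lay on either side of the controls, and at these levels rounding to whole numbers makes each step coarse.

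**Figure D2:**
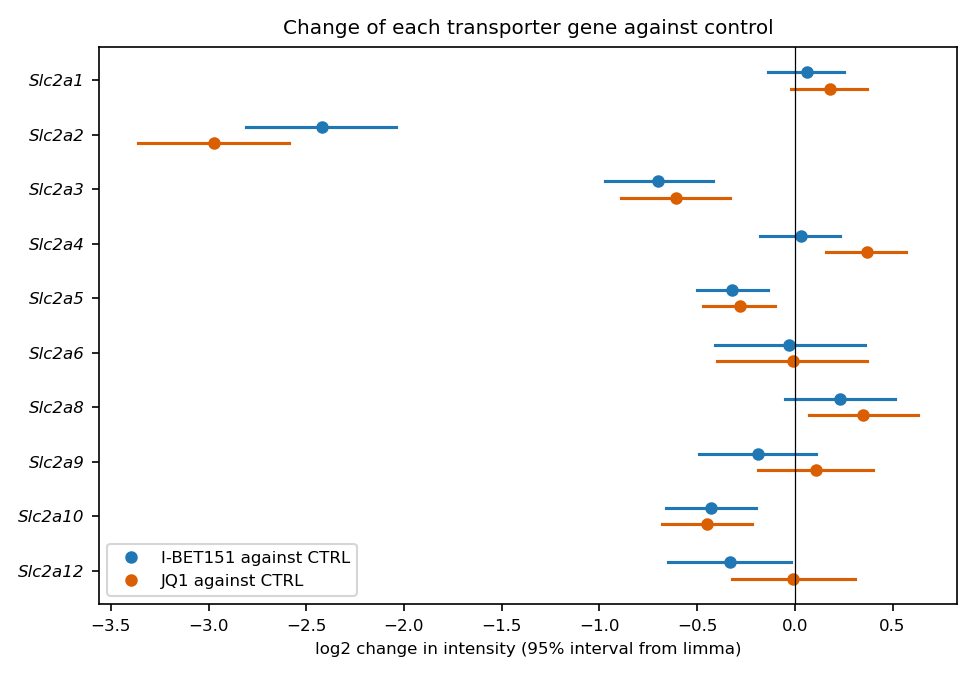
Log2 change in intensity against control for each transporter gene (points) with its 95% interval from limma (lines), for I-BET151 and JQ1, n = 2 arrays per group. The intervals of Slc2a2, around -2.42 and -2.97, lie apart from those of the other 9 genes, which had changes between -0.70 and 0.37.

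Across the family, all 4 inhibitor arrays were under both controls for 4 members (Slc2a2, Slc2a3, Slc2a5 and Slc2a10) and above them for 1 (Slc2a8). Of all genes, 14.9% were placed lower and 14.4% higher in this way. In the limma fit across all genes, called at a Benjamini-Hochberg adjusted p under 0.05, 1 of 10 members, Slc2a2, was called under I-BET151 and 1, again Slc2a2, under JQ1. Of all genes 1.13% were called under I-BET151 and 3.80% under JQ1, or 0.870% and 2.67% as lower, and nothing is read from these counts, since the same contrasts chose the members. The median log2 difference of the 10 members was -0.26 under I-BET151 and -0.01 under JQ1, beside 0.003 and 0.016 over all genes. Both contrasts use the same control arrays. No call held with 1 array left out: with either control array, either I-BET151 array or either JQ1 array left out, 0 members and 0 genes were called in either contrast. The log2 difference of Slc2a2 lay between -2.59 and -2.26 for I-BET151 and between -3.11 and -2.74 for JQ1 over all 21 alternatives tried.

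**Figure D3:**
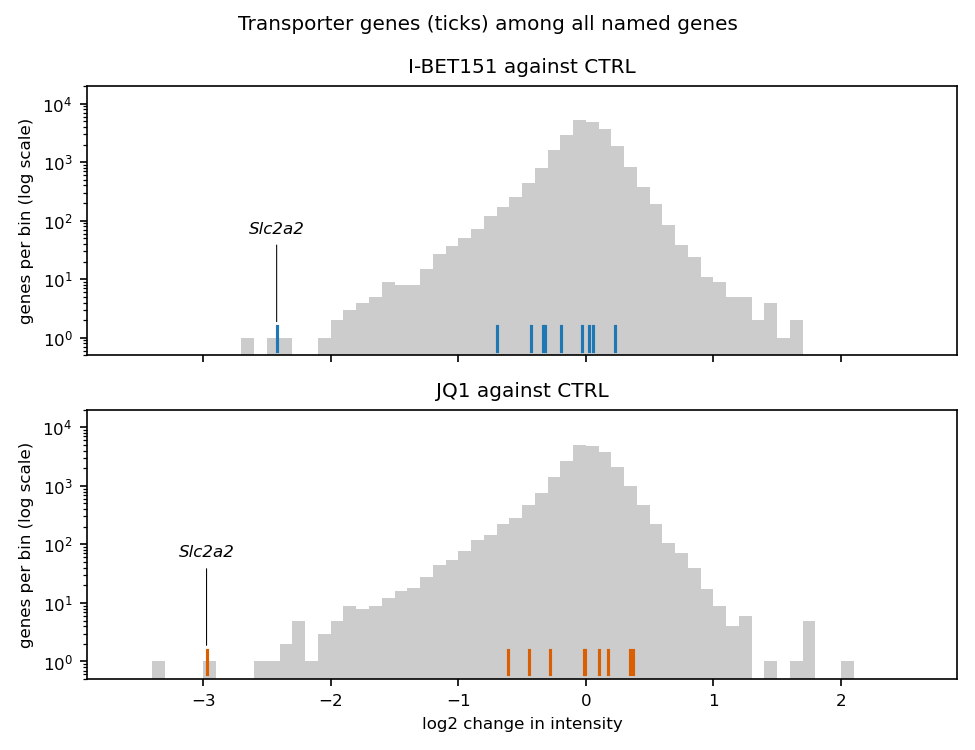
Distribution of the log2 change against control over 24010 named genes (grey, genes per bin of 0.1 on a log axis), for I-BET151 above and JQ1 below, with the 10 transporter genes as ticks. Slc2a2 lies at the far left, at -2.42 and -2.97, and the other 9 lie between -0.70 and 0.37.

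JQ1 was also set directly against I-BET151, at doses that differ (100 nM and 500 nM). The choice of the family did not use this contrast, but it used the same inhibitor arrays. No member was called, and 0 of 24010 genes were (limma). An unadjusted limma p under 0.05 was found for 1610 genes, or 6.71%, among them 4 of the 10 members. Nothing is read from this count of members, since those arrays also chose the family. Slc2a2 was 0.55 lower on the log2 scale under JQ1 (-0.55 ± 0.15, SE), with a 95% interval from -0.94 to -0.16 and an adjusted p = 0.718 in limma. Both JQ1 arrays, at 76, were under both I-BET151 arrays, at 99 and 125. Slc2a4 was 0.34 ± 0.08 (SE) higher under JQ1, with an interval from 0.13 to 0.54 and the same limma adjusted p = 0.718. Slc2a9 and Slc2a12, both dim, were 0.30 and 0.33 higher, each with a limma adjusted p = 0.741. For Slc2a3, the interval of the difference ran from -0.19 to 0.36, for Slc2a10 from -0.24 to 0.21 and for Slc2a1 from -0.08 to 0.31. These intervals do not show that the compounds acted alike on those genes, only that a difference beyond their bounds was not seen.

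Slc2a2 is also a gene of liver and gut, and markers of these tissues were followed beside it. The summed intensity of 13 liver markers was 7268 and 6991 in controls, 4069 and 5917 with I-BET151 and 3934 and 6155 with JQ1, so the mean sum was 70% and 70.8% of control. The markers did not move alike. Ttr, which gave 2328 and 2376 of the control sums, was between 2056 and 2364 on the inhibitor arrays. The median log2 difference of the list was -0.09 under I-BET151 and -0.10 under JQ1. Single markers ranged from -1.52 to 0.69 and from -1.49 to 0.82. Fgb was at 35.0% and 35.7% of control, Serpina1b at 41.6% and 38.3% and Ambp at 52.6% and 42.9%, each lower on all 4 inhibitor arrays. Among the markers higher in the mean under both inhibitors were Apoa2, Apob and Ahsg, whose inhibitor arrays overlapped the controls. Alb ranged from 35 to 753 over the inhibitor arrays, against 179 and 58 in controls. Of the 13, none was called under I-BET151 and Ambp fell under JQ1, where 0.870% and 2.67% of all genes were called as lower. Apoh was the liver marker at 20 or under on every array. From replicate 1 to 2 in controls, the liver sum went from 7268 to 6991 and Slc2a2 from 544 to 655. With I-BET151 the sum went from 4069 to 5917 and Slc2a2 from 99 to 125. With JQ1 the sum went from 3934 to 6155, and Slc2a2 read 76 on both arrays. The 13 markers of intestine and stomach summed to 1796 and 1828 in controls, 1673 and 1560 with I-BET151 and 1573 and 1825 with JQ1, with Fabp1 and Fabp2 at 20 or under throughout. Pyy alone gave most of these sums, with 1424 and 1435 in controls, 1295 and 1201 with I-BET151 and 1223 and 1450 with JQ1. The sum thus mainly follows Pyy and says little about the other markers. Of the 13 gut markers, Vil1, the villin gene, fell under both inhibitors, from 26 and 28 to 17 and 16 with I-BET151 and 18 and 19 with JQ1 (limma adjusted p = 0.0432 and 0.0356). The 13 markers of pancreatic epithelium summed to 9301 and 9179 under I-BET151 and to 8587 and 9216 under JQ1, 98.9% and 95.3% of the control mean. Of these, the keratin gene Krt18 fell under JQ1, from 258 and 269 to 186 and 178 (limma adjusted p = 0.0277). Krt18, Epcam, Krt8 and Cldn4 were lower than both controls on all 4 inhibitor arrays, and Cldn6 was higher on all 4. Of all genes, 14.9% were placed lower and 14.4% higher in this way. Cpa1 gave 2925 and 3183 of the control sums, so a steady sum does not mean that each marker was steady. The part of liver cells in the Slc2a2 values was not tested.

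**Figure D4:**
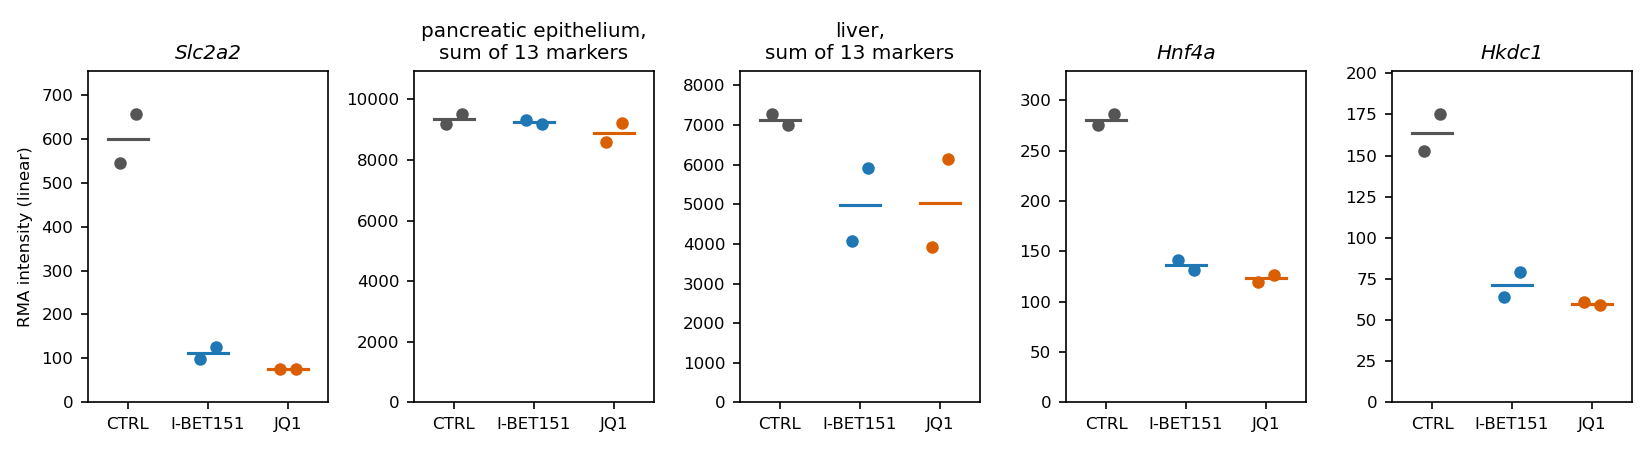
RMA intensity per array (points) and group mean (lines), on linear axes from 0, for Slc2a2, the sums of 13 pancreatic epithelium and 13 liver markers, Hnf4a and Hkdc1. Slc2a2 was at 12.7% of control under JQ1, the epithelial sum at 95.3% and the liver sum at 70.8%.

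Most transcription factors known from other work to act on Slc2a2 were not called. Of 13 measured factors in a list of 16, Hnf4a fell under both inhibitors, Neurod1 rose under JQ1 and the other 11 were called in neither contrast. Hnf4a, a nuclear receptor of liver, gut and pancreatic epithelium, was at 276 and 286 in controls, 141 and 132 with I-BET151 and 120 and 127 with JQ1. Its log2 change was -1.04 ± 0.07 (SE, limma adjusted p = 0.0313) and -1.19 ± 0.07 (adjusted p = 0.0112). Neurod1, an endocrine factor, was at 147 and 164 in controls, 271 and 231 with I-BET151 and 277 and 279 with JQ1, with a change of 0.84 ± 0.10 (SE, limma adjusted p = 0.0313) under JQ1. The list median was 0.16 under I-BET151 and 0.12 under JQ1. Of all genes, 0.870% were called as lower under I-BET151. Under JQ1, 2.67% were called as lower and 1.13% as higher. The beta-cell and progenitor factor Pdx1 (252 and 228 in controls, 244 and 330 under JQ1) and Foxa2 (288 and 289, then 291 and 356), a pioneer factor of the endoderm, were not called.

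Of 7 measured genes in a list of 8 hexokinases and glucose-sensing proteins, 1, Hkdc1, fell under both inhibitors and the others were not called. Of all genes, 0.870% were called as lower under I-BET151 and 2.67% under JQ1. Hkdc1, a hexokinase-like gene of epithelia, was at 153 and 175 in controls, 64 and 79 with I-BET151 and 61 and 59 with JQ1. Its log2 change was -1.20 ± 0.13 (SE, limma adjusted p = 0.0449) and -1.45 ± 0.13 (adjusted p = 0.0185). Hk2, the hexokinase of muscle and fat and of many growing cells, was at 234 and 217 in controls, 148 and 150 with I-BET151 and 176 and 150 with JQ1, so that all 4 inhibitor arrays were lower. Its log2 differences were -0.60 ± 0.10 (SE, limma adjusted p = 0.0788) and -0.47 ± 0.10 (adjusted p = 0.0775), which missed the threshold. Hk1, the hexokinase of most tissues, was at 173 and 161 in controls and between 166 and 178 on the inhibitor arrays. The subunit genes of the ATP-sensitive potassium channel, Kcnj11 and Abcc8, had log2 changes between -0.21 and 0.00 and were not called.

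Further along the pathway few genes were called. Of the 19 listed glycolysis enzymes, 15 were measured. Pklr, the pyruvate kinase of liver and red cells, was at 99 and 88 in controls, 49 and 60 with I-BET151 and 48 and 59 with JQ1, with log2 differences of -0.78 and -0.81 (limma adjusted p = 0.104 and 0.0667). Ldha, a lactate dehydrogenase gene, was at 1103 and 920, then 692 and 639, then 631 and 644, with differences of -0.60 and -0.66 (limma adjusted p = 0.0888 and 0.0501). Neither passed the threshold. No gene of the list was called under I-BET151, and Pfkl, the liver-type phosphofructokinase, rose under JQ1, where 1.13% of all genes were called as higher, from 378 on both control arrays to 527 and 526 (log2 change 0.48 ± 0.06, SE, limma adjusted p = 0.0356). The list medians were -0.27 under I-BET151 and -0.18 under JQ1, beside 0.003 and 0.016 over all genes. Of 9 genes of glucose release, none was called under I-BET151 and Pcx, pyruvate carboxylase, rose under JQ1, from 126 and 124 to 170 and 173 (0.46 ± 0.06, limma adjusted p = 0.0343). The 6 measured genes of fructose, polyol and mannose metabolism (list of 8) had none called under either inhibitor.

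Of 12 measured genes that set how much transporter reaches the cell surface (list of 13), none was called under I-BET151 and the arrestin genes Txnip and Arrdc4 rose under JQ1. Both encode alpha-arrestins that draw GLUT1 from the surface. Txnip was at 2345 and 2373 in controls, 3117 and 3278 with I-BET151 and 3377 and 3426 with JQ1 (0.53 ± 0.06 on the log2 scale under JQ1, SE, limma adjusted p = 0.0243). Arrdc4 was at 502 and 542, then 659 and 739, then 781 and 795 (0.60 ± 0.08 under JQ1, limma adjusted p = 0.0384). For both genes all 4 inhibitor arrays lay above the controls, as for 14.4% of all genes. Under JQ1, 1.13% of all genes were called as higher.

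The remaining sugar carriers were not called. Slc2a13, which encodes a proton-coupled myo-inositol carrier of the same family, was at 92 and 79 in controls, 130 and 140 with I-BET151 and 172 and 133 with JQ1. Its log2 change was 0.66 ± 0.15 (SE, limma adjusted p = 0.13) and 0.83 ± 0.15 (adjusted p = 0.0626), and under JQ1 it was called in 6 alternatives that kept all 6 arrays, with adjusted p from 0.00854 to 0.0486. Slc2a7 stayed between 18 and 21 on all arrays. None of the 8 sodium-coupled sugar carriers was called, with log2 changes from -0.11 to 0.35 under I-BET151 and from -0.11 to 0.33 under JQ1. The calls on the factor and pathway genes named above were lost without any 1 of the 6 arrays, like all calls, and were kept in each of these 6 fits when genes below the median were left out as well.

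By profile over the 6 arrays, as log2 differences from the control mean, the genes nearest to Slc2a2 were Cckar (Euclidean distance 0.70), Wfdc15b (0.72), the adhesion receptor gene Adgrg6 (1.16), Serpina6, which encodes corticosteroid-binding globulin (1.19), and the olfactory receptor gene Olfr111 (1.21). Cckar was at 321 and 398 in controls, 50 and 66 with I-BET151 and 31 and 37 with JQ1. Wfdc15b was at 333 and 329, then 57 and 73, then 60 and 58. Adgrg6 was at 277 and 259, then 65 and 74, then 56 and 50. Serpina6 varied most between replicates, with 351 and 657 with I-BET151 and 225 and 406 with JQ1 against 1654 and 1927 in controls. Olfr111 was dim, at 28 and 32 in controls and at 6 to 7 on every inhibitor array. This distance was measured on the same 6 arrays that singled out Slc2a2 and is given as a description.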

How the data were processed

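The members and gene lists were chosen with earlier results of these data known. Per the submitters' processing notes, the deposited intensities were normalized by the authors with RMA (background correction, quantile normalization and a summary over probes). They are whole numbers on a linear scale from 5 upward. The version, the grouping of probes and the step back to a linear scale are not given in the sources used here. A change shared by most transcripts is lost in such normalization.

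Of 24972 rows, 24014 had 1 gene symbol in the platform annotation and 958 were not listed. Row identifiers are Entrez IDs, and 23921 were found in a RefSeq table of GRCm38.p6, used for names. For 4 symbols with several rows the brightest was kept, which left 24010 genes. All 10 members had 1 row each.

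log2(intensity), with no offset or filter, was fitted with limma 3.58.1 in R 4.3.3 over all 6 arrays (3 residual degrees of freedom, 1.76 from the prior). Adjustment for multiple tests followed Benjamini and Hochberg over all genes, with 0.05 as the limit for a call. Only called genes are said to have risen or fallen. The fit was tested on simulated data. Depth has no equivalent on arrays, and 2 arrays per group limit the precision. Arrays of a group correlated at 0.9952 to 0.9963 over all genes. I-BET151 gave 63 calls higher and 209 lower (183 and 350 with arrays centred on their median), and JQ1 gave 272 and 640 (664 and 727).

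List genes named are those called under either inhibitor, at most 4 per list by smallest p. The others were chosen after their values were seen. The 5 nearest profiles exclude predicted genes. RefSeq promoters matched 8 members, and those of Slc2a3 and Slc2a4 are not shown. A planned comparison of proteins and 1 planned motif were not run. Alternatives were an offset, filters, scaling, the groups in the fit, the variance prior, a replicate block and leaving out each array.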

Additional observations from a re-analysis of the deposited data

How the results depend on the processing

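Under I-BET151, where 1 member and 272 genes were called, log2(intensity + 16) gave 2 members and 661 genes, leaving out the dimmest 25% of genes 2 and 798, leaving out genes below the median 3 and 1422, centring arrays on their median 2 and 533, repeated quantile normalization 2 and 342, a variance prior with a trend 1 and 446, and a robust prior 2 and 548. Under JQ1, with 1 member and 912 genes, the same settings gave 2 and 1615, 3 and 1733, 4 and 2362, 3 and 1391, 2 and 1108, 2 and 1377, and 2 and 1270. The added members were Slc2a3 and, where more than 2 were called, Slc2a4, Slc2a5 or Slc2a10 (and Slc2a8 under JQ1 without CTRL 2 and genes below the median). With only the 2 groups compared in the fit, and with the replicate block, 0 members and 0 genes were called under either inhibitor. The inhibitor contrasts chose the members, so their counts of members support nothing. Over all genes, deviations of same-numbered arrays from their group means correlated at -0.016 to -0.040. The liver marker sum was still higher on replicate 2 than on replicate 1 under both inhibitors, at 4069 and 5917 with I-BET151 and 3934 and 6155 with JQ1. In controls it was 7268 and 6991. What a replicate number shares is not given by the labels, and the correlation over all genes cannot settle it.

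Leaving out 1 array gave 0 members and 0 genes for either inhibitor. Done together with leaving out genes below the median, it gave 1 to 2 members and 377 to 1042 genes for I-BET151 (409 without CTRL 1, 396 without CTRL 2, 753 without I-BET151 2), and 1 to 3 members and 951 to 2205 genes for JQ1. JQ1 against I-BET151 gave 0 in each setting run. Small differences that were not called changed sign. For JQ1 against I-BET151, Slc2a6 was -0.01 with repeated quantile normalization and ranged from -0.187 to 0.214 with 1 array left out, Slc2a3 from -0.026 to 0.198, Slc2a5 from -0.027 to 0.103 and Slc2a10 from -0.089 to 0.057. Against control over all alternatives, Slc2a1 ranged from -0.01 to 0.12 and Slc2a4 from -0.05 to 0.10 (I-BET151), Slc2a6 from -0.10 to 0.05 (I-BET151) and from -0.21 to 0.19 (JQ1), and Slc2a12 from -0.16 to 0.14 (JQ1). With 1 array left out, Slc2a7 ranged from -0.039 to 0.113 (I-BET151) and from -0.039 to 0.183 (JQ1). The cause of these changes was not tested. Signal near the floor limits Slc2a12 and Slc2a6.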
